A study of Homo sapiens with 9 samples.

Results

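The OAS family of TCam-2 cells, a human testicular seminoma cell line, was followed across 9 RNA-seq libraries. Its 4 genes, OAS1, OAS2, OAS3 and OASL, were taken by symbol from a table of 63856 genes, and 3 regulators of their pathway are described beside them. TCam-2 with the activated ESX1 gene (ESX1, 3 libraries) were transfected with px335_G2P vectors carrying gRNAs specific for ESX1 together with PB-TRE-dCas9-VPR, a CRISPR activator under a doxycycline-inducible promoter. The negative control (NC, 3 libraries) received px335_G2P with gRNAs nonspecific for the human genome, and whether dCas9-VPR was given to NC as well is not stated in the sources used here. Both were kept under antibiotic selection and doxycycline and were collected after 72 h, when part of the cells in each culture carried the vector's GFP. The wild type (WT, 3 libraries) had no modification. NC against WT therefore compares transfected and selected cells with unmodified ones, and ESX1 against NC compares the transfected cultures with each other.

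OAS1, OAS2 and OAS3 are enzymes that bind double-stranded RNA and then join ATP into short oligoadenylates. These act as second messengers of the antiviral response, which ends in the decay of viral and cellular RNA. OASL is a relative without synthase activity that carries ubiquitin-like domains and enhances signalling by the RNA sensor RIG-I. All are classical interferon-stimulated genes.

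The total count ranged from 5212804 to 10644408 per library, with the lowest in ESX1 replicate 3, and all 9 seminoma marker genes had at least 10 counts in every library. The seminoma markers summed to 3790 to 4660 CPM in WT, 2860 to 3070 in NC and 1610 to 1950 in ESX1 (CPM, counts per 1000000, with library sizes scaled by TMM factors). Markers of leukocytes were near 0, with CD3E and TYROBP at 0 in every library and PTPRC at 1 count at most. The summed level of the 6 leukocyte markers was 0.292 to 1.67 CPM in WT, 1.07 to 2.49 in NC and 1.22 to 2.22 in ESX1. The 3 endothelial markers summed to 11.8 to 16.4 CPM in WT, 20.3 to 29.5 in NC and 31.5 to 42.3 in ESX1. Most of that was VWF, whereas PECAM1 had at most 5 counts and CDH5 at most 14 in a library. The 5 fibroblast markers summed to 183 to 337, 133 to 169 and 108 to 227 CPM in the same order. COL1A2 gave most of this sum, and COL1A1 had 16 to 293 counts. DCN, PDGFRB and LUM had at most 5, 12 and 31 counts in a library. The part of these markers in the results was not tested. Activation of the target gene was seen in each ESX1 library, where ESX1 had 562, 554 and 170 counts (57.0, 55.7 and 31.4 CPM), against 27 to 35 counts in NC and 28 to 33 in WT.

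One library stood apart from its group, and the results are given with and without it. ESX1 replicate 2 had NC-like levels of the OAS genes, while ESX1 replicates 1 and 3 had levels much closer to WT. Its total count was 9755967, with 9990966 in replicate 1 and 5212804 in replicate 3, and the part of depth in the split was not tested. ESX1 itself was at nearly the same level in replicates 1 and 2. The labels give no batch or date for any library.

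OAS1, OAS3 and OAS2 lie next to each other on the plus strand of chromosome 12 (GRCh38), in this order. OAS1 (ENSG00000089127.12) spans chr12:112906777-112933222, OAS3 (ENSG00000111331.12) chr12:112938352-112973249 and OAS2 (ENSG00000111335.12) chr12:112978395-113011723. OASL (ENSG00000135114.12) is on the minus strand of the same chromosome at chr12:121019111-121039242. The exons of OAS2, OAS3 and OASL share 0 bases with exons of another gene. OAS1 shares 92 exon bases (1.86%) with the minus-strand gene RP1-71H24.1, which had 0 counts in every library.

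For the members whose promoter was available, the sequence just before the start is shown, with matches to interferon-type motifs in capitals. The promoter table of RefSeq (GRCh38.p14) held 2 of the 4 members, OAS1 and OAS3. Searched on both strands were AANNGAAA, the core bound by interferon regulatory factors, and GAAANNGAAA, the repeat of the interferon-stimulated response element, which overlaps it. The lines below give the last 30 bases before the RefSeq start of each gene (chr12:112906932-112906961 and chr12:112938444-112938473) and 128 bases of OAS3 before the first exon of the count table's gene model (chr12:112938224-112938351), all on the plus strand.
OAS1, last 30 bases: cctcccttctgaggAAACGAAAccaacagc
OAS3, last 30 bases: gttcggagagccgggcggGAAAACGAAAcc
OAS3, upstream 128 bases: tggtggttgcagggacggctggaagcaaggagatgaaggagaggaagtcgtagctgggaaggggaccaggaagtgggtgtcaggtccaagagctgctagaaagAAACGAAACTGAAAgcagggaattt

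In the whole 250 bases before the start, OAS1 held 2 matches to AANNGAAA and 0 to GAAANNGAAA, and OAS3 held 3 and 2. AANNGAAA occurred in 20.6% of 27305 promoters of the same length and GAAANNGAAA in 3.07%. Among the promoters of 34 listed interferon-stimulated effectors, they occurred in 82.4% and 61.8%. The gene models of the count table begin 185 bases (OAS1) and 122 bases (OAS3) before the RefSeq start. A match is a match of letters and no evidence of binding.

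OAS3, the largest enzyme of the family, was the most abundant member per kilobase of exon. Its counts were 19, 12 and 11 in WT, 610, 549 and 564 in NC, and 67, 483 and 24 in ESX1 replicates 1, 2 and 3. These correspond to 2.07, 1.75 and 1.15 CPM in WT, 63.2, 58.8 and 57.4 in NC, and 6.79, 48.6 and 4.43 in ESX1. All 3 NC libraries were above every other library, ESX1 replicate 2 came next, and ESX1 replicates 1 and 3 lay between it and WT. The group means were 1.66 ± 0.469 CPM in WT, 59.8 ± 3.03 in NC and 19.9 ± 24.8 in ESX1 (SD, n = 3 each).

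OAS1, the small enzyme at the head of the cluster, was silent in WT at this depth, with 0 counts in each library. Its counts were 166, 144 and 152 in NC (17.2, 15.4 and 15.5 CPM) and 7, 109 and 3 in ESX1 (0.71, 11.0 and 0.554 CPM). The order was the same as for OAS3, with ESX1 replicates 1 and 3 far below replicate 2. ESX1 replicate 3, with 3 counts, was at the floor of 3 counts and could not be told apart from WT at this depth. The NC mean was 16.0 ± 1.01 CPM and the ESX1 mean 4.08 ± 5.97 CPM (SD, n = 3 each).

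OAS2 was the least abundant of the 3 enzymes and the most variable within NC. It had 1, 0 and 0 counts in WT, 66, 26 and 43 in NC (6.84, 2.79 and 4.38 CPM), and 5, 37 and 1 in ESX1 (0.507, 3.72 and 0.185 CPM). ESX1 replicate 2 lay inside the NC range here, so that the ESX1 and NC groups overlapped. ESX1 replicate 3 and WT replicate 1 had 1 count each, under the floor of 3 counts, and could not be told apart at this depth. The means were 0.0364 ± 0.063 CPM in WT, 4.67 ± 2.04 in NC and 1.47 ± 1.96 in ESX1 (SD, n = 3 each).

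OASL was barely detected. Its counts were 0, 0 and 0 in WT, 0, 0 and 5 in NC, and 1, 6 and 1 in ESX1, and no fold is given. It was the member that did not pass the filter on low counts, so its log2(CPM + 1) values were compared by an exact two-sided permutation test, in which 3 libraries against 3 cannot give a p below 0.1. That p was 0.1 for ESX1 against WT, 0.5 for ESX1 against NC and 1 for NC against WT.

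Levels of different genes were compared per kilobase of exon (normalized RPKM). In NC they were 7.25 ± 0.368 for OAS3, 3.24 ± 0.205 for OAS1, 0.745 ± 0.326 for OAS2 and 0.0482 ± 0.0835 for OASL (SD, n = 3). The neighbours in this order did not overlap between libraries, from OAS3 down to OASL.

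The summed OAS level was 0.139 to 0.268 RPKM in WT and 10.7 to 12.2 RPKM in NC. In the activated cells it was 1.08, 8.88 and 0.731 RPKM in replicates 1, 2 and 3. OAS3 made up 62.6% to 66.7% of this sum in NC, 66.4% in ESX1 replicate 2, and 76.5% and 73.5% in replicates 1 and 3. The share of OAS1 was 28.5% to 29.2% in NC, 25% in ESX1 replicate 2, and 13.3% and 15.3% in replicates 1 and 3, which rest on 80 and 29 counts over the family. In RNA from a whole culture, fewer responding cells and less RNA per cell cannot be told apart.

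In NC in comparison to WT, all 3 tested OAS genes were higher. A gene was called at an adjusted p below 0.05 (edgeR's quasi-likelihood test, Benjamini-Hochberg over 18452 genes) and a fold change of at least 2, and 3.12% of tested genes were called higher and 2.15% lower. OAS3 rose by 5.17 on the log2 scale (SE 0.675, 36.1-fold, adjusted p = 9.28e-05). OAS1 was at least 44.6-fold higher (adjusted p = 0.000283), a lower bound set against 3 counts in each WT library. For OAS2, with 1 count in WT altogether, the ratio of summed counts was 120 (95% exact counting interval 21.2 to 4770, which covers counting error only), with an adjusted p of 0.000631. The direction held in 3 of 3 NC libraries for each gene. With 0 or 1 count in WT, OAS1 and OAS2 passed the filter only through the transfected libraries, so that a difference from WT was built into their being tested. The filter asks for 1.08 CPM, before TMM scaling, in at least 3 libraries. OAS3, with 11 counts in WT replicate 3, was under it there, so it too needed a transfected library to pass.

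In the cells in which ESX1 was activated, the same 3 genes were called higher than in WT, where 6.78% of tested genes were called higher and 4.77% lower. OAS3 rose by 3.64 (log2, SE 0.691, 12.5-fold, adjusted p = 0.000793). OAS1 was at least 11.3-fold higher (adjusted p = 0.00224), and the count ratio of OAS2 was 43.6 (95% exact counting interval 7.43 to 1760, adjusted p = 0.00603). Both comparisons share the WT libraries.

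How far these folds rest on ESX1 replicate 2 differed by gene. Without this library, in a fit that called 6.89% of tested genes higher and 5.47% lower than WT, OAS3 was 1.81 higher on the log2 scale (adjusted p = 0.000179) and OAS1 was still called (adjusted p = 0.00152). OAS2 was no longer called (2.89, adjusted p = 0.0866). ESX1 replicate 1 had 7 OAS1 counts, at least 1.97-fold over WT, and ESX1 replicate 3 had 3, which is the floor itself and gives no fold.

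Against NC, the OAS genes were lower in the mean of the activated cells, but none of the 3 was called in a comparison in which 1.08% of tested genes were called higher and 0.699% lower. The log2 differences were -1.87 for OAS1 (SE 0.617, adjusted p = 0.115), -1.54 for OAS2 (SE 0.626, adjusted p = 0.215) and -1.53 for OAS3 (SE 0.501, adjusted p = 0.103). All 3 had an unadjusted p under 0.05, as did 16.0% of tested genes. The 95% intervals of the folds were 0.11 to 0.678 for OAS1, 0.137 to 0.855 for OAS2 and 0.166 to 0.719 for OAS3. Other settings moved this count. limma on the authors' log2 values called 2 of the 3 lower, and 177 genes in either direction over the whole fit. A replicate block called OAS1 (adjusted p = 0.019) and OAS3 (adjusted p = 0.00873), and 358 genes over the whole fit. With no filter beyond 1 count all 3 were called, and 441 genes over the whole fit. DESeq2, which gave an adjusted p to OAS2 alone, called none of the 3.

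The activated libraries differed widely from each other. Relative to the NC mean, ESX1 replicate 2 had 68.4% of the OAS1 level, 79.7% of OAS2 and 81.2% of OAS3. Replicate 1 had 4.43%, 10.9% and 11.4%, and replicate 3 had 3.46%, 3.96% and 7.41%. Replicate 2 was thereby 7.15-fold (OAS3) to 15.4-fold (OAS1) above replicate 1, and 11.0-fold to 20.2-fold above replicate 3. Of all tested genes, 99.9% had a lower moderated quasi-dispersion than OAS1 and than OAS3, and 99.1% a lower one than OAS2.

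Without ESX1 replicate 2, all 3 genes were called lower than in NC, where 1.09% of tested genes were called lower. The log2 differences were then -4.60 for OAS1 (adjusted p = 4.12e-06), -3.56 for OAS2 (adjusted p = 0.00431) and -3.37 for OAS3 (adjusted p = 9.55e-08). Leaving out any other library gave differences between -1.92 and -1.09 over the 3 genes and no call. The test without replicate 2 leaves out a library that was seen to differ, and it describes replicates 1 and 3 rather than the activated group.

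**Figure D1:**
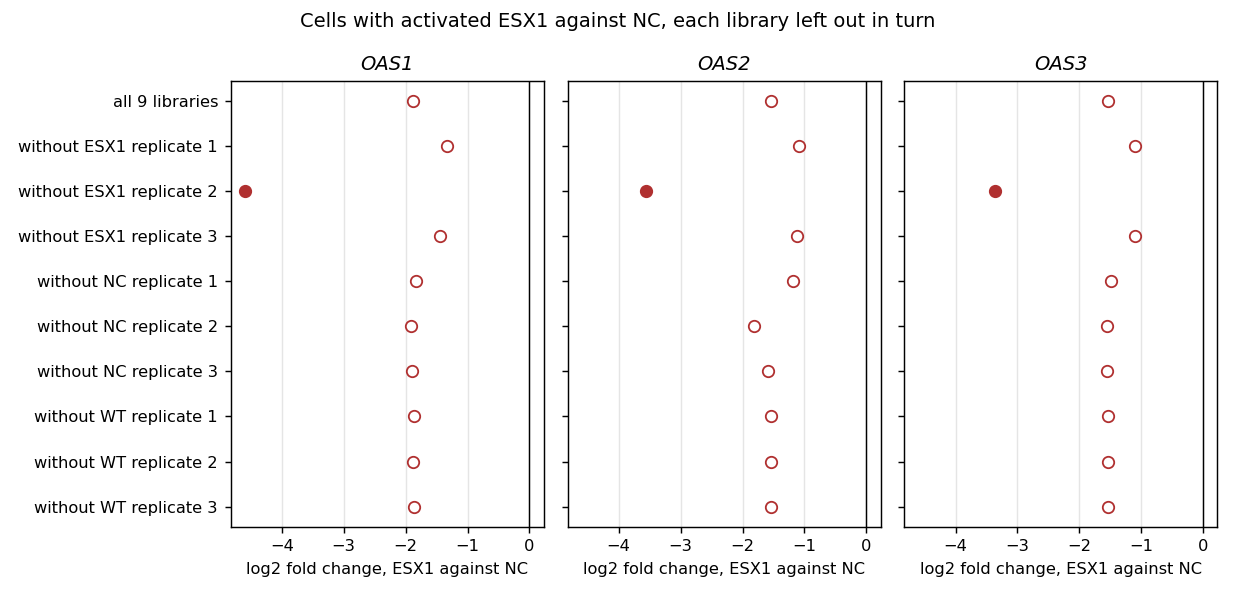
Log2 fold change of OAS1, OAS2 and OAS3 in ESX1 against NC with all 9 libraries and with each library left out (rows), where filled points are called and open points are not. Leaving out ESX1 replicate 2 moved OAS3 from -1.53 to -3.37 and filled all 3 points, and no other library did.

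Of 3 listed regulators of the pathway, 0 were called in any of the 3 comparisons by edgeR, and their median log2 difference in NC against WT was -0.08. At an unadjusted p under 0.05 there was 1 gene, ABCE1, in each comparison with WT and 0 in ESX1 against NC, where 31.1% (NC against WT), 39.7% (ESX1 against WT) and 16.0% of all tested genes had such a p. ABCE1, a ribosome recycling factor that also restrains the antiviral pathway, had 110 ± 8.43 CPM in WT, 78.4 ± 2.10 in NC and 78.9 ± 18.8 in ESX1 (SD, n = 3). It was -0.49 on the log2 scale in NC against WT (adjusted p = 0.0219) and -0.48 in ESX1 against WT (adjusted p = 0.0163), short of the 2-fold minimum. In ESX1 it was highest in replicate 2, with 65.7 and 70.6 CPM in replicates 1 and 3. Since 11.9% of its exon bases overlap ANAPC10 and OTUD4 on the other strand and the counting did not use strand, its value is uncertain.

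PDE12 and AKAP7, both able to degrade the oligoadenylates, were likewise not called. PDE12 had 33.6 ± 2.01 CPM in WT, 39.0 ± 5.61 in NC and 37.2 ± 1.41 in ESX1, with an adjusted p of 0.304 for NC against WT. AKAP7 had 8.18 ± 2.75, 7.80 ± 2.46 and 11.4 ± 3.18 CPM in the same order (SD, n = 3 each), with a log2 difference of 0.56 in ESX1 against NC (adjusted p = 0.361).

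The OAS genes had close company. Over the 9 libraries, the log2 CPM of OAS1 and OAS3 correlated at r = 0.996, OAS2 and OAS3 at 0.986 and OAS1 and OAS2 at 0.982, as a description of libraries that share 3 groups. The 5 genes most like OAS1 by this measure were IFIH1 (r = 0.995), PARP14, IFIT1, IFI6 and IRF7. OAS3 was closest to PARP14 (r = 0.996), IFIH1 and PARP9, and OAS2 to IRF7 (r = 0.982), PARP14, SAMD9, TRIM25 and IFIH1. All of the genes named here belong to lists of interferon-related genes drawn up for this comparison. IFIH1, which encodes the RNA sensor MDA5, had 0.522 to 0.583 CPM in WT, 22.0 to 24.8 in NC, and 3.14, 23.8 and 2.03 in ESX1. Its level in ESX1 replicate 2 was within the NC range, and replicates 1 and 3 were between NC and WT.

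Among 40 listed interferon-stimulated effectors, 35 could be tested and 23 were higher in NC than in WT, with 0 lower. Of all tested genes, 3.12% were called higher and 2.15% lower. The median log2 fold change of the list was 2.76, next to 5.48 for the OAS genes with OAS1 at its bound, and 0.009 over all tested genes. All NC libraries were above all WT libraries in 29 of the 35 (82.9%) and in 17.6% of all tested genes. In 12 of the 35, 10 of them among the 23 called, every WT library was below the 1.08 CPM that the filter asks for (6.59% of all tested genes), so that they passed only through the transfected libraries and the count and median of the list are a description only. The 12 leave out genes that reached this level in some WT libraries but not in the 3 that the filter asks for. Those genes, IFI27 with 6, 10 and 4 WT counts among them, also needed transfected libraries to pass. IFI6, a small mitochondrial protein, had 544, 415 and 368 counts in NC and 2, 0 and 1 in WT. IFIT3, which binds the RNA-capturing IFIT1, had 64, 79 and 91 against 4, 0 and 1 counts, and both genes are among the 12. TRIM25, the ubiquitin ligase of the RIG-I pathway, was 1.87 higher on the log2 scale (adjusted p = 3.1e-05), and PARP14, PARP9 and IFI27 were 3.91, 3.74 and 3.92 higher.

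In the activated cells 19 of the 35 effectors were higher than in WT and 0 lower, against 6.78% and 4.77% of tested genes. The median of the list was 1.48, next to 0.007 over all tested genes. Against NC, 0 of 35 were called by edgeR, DESeq2 called 1 and limma 12, and the median was -0.97. At an unadjusted p under 0.05 there were 20 (57.1%), all of them lower, next to 16.0% of all tested genes. ESX1 replicate 2 exceeded both other activated libraries by more than 2-fold in 24 of the 35 effectors (68.6%), in 3 of 3 tested OAS genes and in 1.47% of all tested genes, a description of the libraries with no test. Without this library, 7 effectors were higher and 4 lower than in WT, next to 6.89% and 5.47% of all tested genes. In the same fit 24 were lower than in NC, next to 1.09% of all tested genes.

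Of all tested genes, 3.12% were called higher in NC than in WT and 2.15% lower. Of the sensors of double-stranded RNA and their adaptors, 3 of 11 tested genes (13 listed) were higher and 0 lower. They were IFIH1 (log2 difference 5.36), DHX58, which encodes LGP2 (3.20), and DDX58, which encodes RIG-I (1.42, adjusted p = 0.0129), while the median of the list was 0.53. IFIH1, with 5, 4 and 5 counts in WT, and DHX58, with 3, 1 and 0, passed the filter only through the transfected libraries. In ESX1 against WT, 1 of the 11 was called, IFIH1 at 4.17, a share near the 6.78% of all tested genes. Without ESX1 replicate 2, IFIH1 (2.26) and TICAM1, an adaptor of the sensor TLR3 (1.89, adjusted p = 0.0096), were called, and TICAM1 was picked out only after its values were known. In that fit 6.89% of all tested genes were called higher than in WT. Against NC there was no call in this list by edgeR. At an unadjusted p under 0.05 there were 4 genes (36.4%), all lower, next to 16.0% of all tested genes. When ESX1 replicate 2 was left out, 2 genes were called lower, next to 1.09% of all tested genes. EIF2AK2, the other main enzyme switched on by double-stranded RNA, had 255 ± 15.5 CPM in WT, 367 ± 29.0 in NC and 257 ± 113 in ESX1 (SD, n = 3 each), and it was not called.

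The signalling list gave 2 of 19 genes higher in NC than in WT and 0 lower, against 3.12% and 2.15% of tested genes. The median of the list was 0.24. IRF9, part of the complex that carries the type I interferon signal, was 2.49 higher on the log2 scale, and with 8, 3 and 9 counts in WT it also passed the filter only through the transfected libraries. IRF7, an interferon-inducible transcription factor, was 2.09 higher (adjusted p = 1.7e-05). Both were also called in ESX1 against WT, at 2.03 and 1.11 for IRF9 and IRF7, next to 6.78% of all tested genes. Without ESX1 replicate 2, IRF9 was called at 1.63 and IRF7 was not (0.71, adjusted p = 0.00706). That is 1 of the 19 called higher, a share near the 6.89% of all tested genes in that fit. Against NC, 0 of the 19 were called by edgeR, with 2 higher and 4 lower at an unadjusted p under 0.05. Such a p was found in 31.6% of the list and in 16.0% of all tested genes. IRF7 was at -0.97 (adjusted p = 0.0119) and SOCS3, a feedback inhibitor of cytokine signalling, at 0.73 (adjusted p = 0.00116), both under 2-fold. SOCS3 was also picked out after its values were known. IRF7 was called lower than in NC without ESX1 replicate 2 (-1.37, adjusted p = 0.000125), next to 1.09% of all tested genes.

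Most of the listed interferon genes were hardly seen. Of 21 listed ligand genes 2 passed the filter, IFNE and IFNK, and 0 were called in any comparison, also at an unadjusted p under 0.05. IFNE had 7, 0 and 12 counts in WT, 13, 10 and 10 in NC, and 7, 29 and 0 in ESX1 replicates 1, 2 and 3. IFNK had 49, 20 and 7 counts in WT, 28, 23 and 22 in NC, and 18, 31 and 3 in ESX1. IFNB1, picked out only after its values were known, had 0 counts in each WT library, 0, 2 and 3 in NC, and 0, 5 and 0 in ESX1. At this depth such counts are at or near the floor of 3. Of 6 genes that sense cytosolic DNA, 2 were tested, and IFI16 was 1.31 lower on the log2 scale in ESX1 against NC (adjusted p = 0.0179). In that comparison 0.699% of all tested genes were called lower. With all 9 libraries, 0 of the 2 were called in ESX1 against WT or in NC against WT. IFI16 had 34.1 to 40.7 CPM in WT, 61.1 to 70.4 in NC, and 18.4, 48.4 and 12.2 in ESX1, where replicate 2 was again the highest.

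No call was made among the genes described here around the OAS cluster. Within 100 kb of OAS1, OAS2 or OAS3, the protein-coding RPH3A had 0 to 2 counts per library and RASAL1 2 to 14, and both were below the filter. DTX1, 44986 bases past the end of OAS2, had 8, 1 and 9 counts in WT, 19, 5 and 19 in NC, and 12, 8 and 5 in ESX1, with an adjusted p of 0.249 for NC against WT.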

How the data were processed

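RNA-seq libraries (TruSeq Stranded Total RNA with Ribo-Zero) were aligned by the authors with HISAT2 2.0.5 to GRCh38. Deposited counts are unnormalized read pairs per gene over exons, counted by the authors without the strand option with featureCounts (1.5.2 in the file header, 1.6.5 in the submitters' processing notes). A deposited table of log2 values, normalized by the authors with DESeq2, was also used, and its transformation is not given in the sources used here. In all 9 samples these log2 values rose strictly with the count of the same row.

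Counts were fitted in R 4.3.3 with edgeR 4.0.16 (filterByExpr, 18452 genes, TMM, glmQLFit over 9 samples and 3 group means, glmQLFTest). A standard error is the log2 fold change divided by the square root of F. Patterns used log2 CPM with a prior count of 2. Alternatives used DESeq2 1.42.0, limma 3.58.1, other scalings and filters, a replicate block, and each sample left out. The tests were run on simulated data first.

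The members and gene lists were chosen with earlier results of these data known. Named were the members, the pathway list, the 5 genes most like each tested member, neighbours within 100 kb, and up to 6 called genes per list by adjusted p. Some genes that this rule names are not reported here, and the lists were counted without them. The study names biological replicates, and no source says which were cultured together.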

Additional observations from a re-analysis of the deposited data

How the results depend on the processing

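Every alternative that gave OAS1, OAS2 or OAS3 an adjusted p kept its direction in each comparison. Calls for NC against WT held for all 3 genes wherever they had an adjusted p. OAS2 lost its call in ESX1 against WT with limma on the authors' log2 values (0.89, adjusted p = 0.0282) and without ESX1 replicate 2. In ESX1 against NC, where 0 OAS genes were called, the count was 3 with no filter beyond 1 count and 2 with limma, and between 0 and 3 when single samples were left out. The cause of the former changes was not tested. DESeq2 gave no adjusted p to OAS1 and OAS3, at least 10 counts in every sample kept OAS3 alone, and a fit of the 6 samples of ESX1 and WT dropped OAS1 and OAS2.

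No source used here says that equal replicate numbers in the titles mark paired samples. Deviations of same-numbered samples from their group means were little correlated, which cannot exclude a shared culture. Correlations of same-numbered deviations were 0.193, 0.091 and 0.016 between ESX1 and NC and at most 0.057 in the other comparisons. With the replicate block, 2 OAS genes were called in ESX1 against NC, OAS1 at -2.53 (adjusted p = 0.019) and OAS3 at -2.07 (adjusted p = 0.00873), and 11 effectors. Over all genes, 358 were called in ESX1 against NC with the block. The block changed no other call of an OAS gene.

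The effectors called in ESX1 against WT were 9 with limma and 11 to 22 with each sample left out. In ESX1 against NC they were 1 with DESeq2, 12 without the filter, 1 with the 6 samples, 12 with limma, and 0 to 24 with each sample left out. These list counts were chosen after seeing the data.

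Over all genes, the calls in ESX1 against WT, ESX1 against NC and NC against WT were 2131, 328 and 973. They were 5306, 784 and 3158 with no minimum fold, 1192, 200 and 563 with at least 10 counts in every sample, and 937, 177 and 338 with limma. Leaving out single samples gave 1772 to 2529, 209 to 434 and 686 to 1338. Upper-quartile factors moved the share of higher calls in NC against WT from 59.2% to 69.5% and the median of all genes in ESX1 against WT to 0.108. Depth limited OASL, OAS2 and OAS1 most, with at most 1 count of each in a WT library.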
